A study of Mus musculus with 12 samples.

Results

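Marcks, Marcksl1, Map1b, Mapt, Nes and Mag are 6 genes best known from cells of the nervous system, and osteocytes, which carry dendrite-like processes, are the reason to read them in bone cells. Each gene was represented by 1 spot, found by its current mouse symbol, so 6 of the 5030 spots on each array are described here. Expression was measured in total RNA on 12 arrays, 3 for each of MLO-Y4 high, MLO-Y4 low, 2T3 C0 and 2T3 low. MLO-Y4 is an osteocyte line from a mouse in which the osteocalcin promoter drives T antigen. 2T3 is an osteoblast line from a mouse in which the BMP-2 promoter drives the SV-40 T antigen. All groups therefore carry a T antigen, each cell type is represented by 1 line, and a difference of cell type cannot be told apart from a difference of line, promoter or source mouse. The labels contrast MLO-Y4 cells that have gap junctions with cells that lack them, and confluent 2T3 cells with sparse ones. High and C0 were read as the denser state only because the other group of each line is called low. Nothing in the labels says whether array numbers mark separate cultures, so each p-value reflects the scatter of these arrays alone, and that scatter may be technical.

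Cell processes are held up by microtubules, intermediate filaments and a cortical actin layer under the membrane. MARCKS and its smaller relative, the product of Marcksl1, bind phosphoinositides, calmodulin and actin at the inner face of the membrane and leave it when protein kinase C phosphorylates them. The Map1b product and tau, the product of Mapt, bind along microtubules in growing and mature axons. Nestin, the product of Nes, is an intermediate filament protein of neural progenitors that is also found in endothelium, developing muscle and some stromal cells of bone marrow. Myelin-associated glycoprotein, the product of Mag, is a sialic acid-binding membrane protein of myelinating glia that restrains axon growth.

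The members were chosen by name for their part in neural processes, but selected on a list whose measured differences between MLO-Y4 and 2T3 were already known, and in which Mag was among the largest falls. Levels of the lines are therefore given as a description without a test, and tests are given only for the density comparisons and for other genes. The lists of other genes were also chosen with earlier results of these data known, so their p-values between the lines are descriptive. In short, Mag, Marcks and Map1b were lower in MLO-Y4 than in 2T3 on average, and Marcksl1 and Mapt were read above background only in MLO-Y4. Nes was read on all 12 arrays, 1.58-fold higher in MLO-Y4 on average, with overlap of the lines. Of the 6 spots, 1 lay lower in MLO-Y4 with no overlap between the lines and 2 lay higher, where 1.75% and 4.1% of all 5030 spots did so. For the 2 higher, Marcksl1 and Mapt, no 2T3 array was read above background, so their separation on every array is not resolved.

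RefSeq promoter windows (build GRCm38.p6) were at hand for 4 of the 6 genes, and 3 are shown because their genes gave the levels that lay farthest apart or opposite between the lines. Each runs from 250 bases before to 50 bases after the annotated start. Capitals mark a TATA box (TATAAA), a GC box (GGGCGG) or a CCAAT box (CCAAT) on either strand. The Mag window lies at chr7:30914873-30915172 on the minus strand and is that of the outermost of the 3 starts in the table. The Map1b window lies at chr13:99516553-99516852 on the minus strand and the Marcksl1 window at chr4:129513331-129513630 on the plus strand.
Mag: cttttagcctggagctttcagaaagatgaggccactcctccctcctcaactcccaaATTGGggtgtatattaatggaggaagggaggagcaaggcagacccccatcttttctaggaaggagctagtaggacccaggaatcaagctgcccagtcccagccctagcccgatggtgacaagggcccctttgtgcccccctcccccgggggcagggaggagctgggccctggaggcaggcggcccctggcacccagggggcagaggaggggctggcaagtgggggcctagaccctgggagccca
Map1b: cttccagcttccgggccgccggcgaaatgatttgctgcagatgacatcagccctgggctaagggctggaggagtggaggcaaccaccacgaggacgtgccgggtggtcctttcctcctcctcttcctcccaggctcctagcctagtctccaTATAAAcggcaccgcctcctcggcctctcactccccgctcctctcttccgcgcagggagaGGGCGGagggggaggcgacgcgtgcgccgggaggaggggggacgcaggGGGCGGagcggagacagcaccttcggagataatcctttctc
Marcksl1: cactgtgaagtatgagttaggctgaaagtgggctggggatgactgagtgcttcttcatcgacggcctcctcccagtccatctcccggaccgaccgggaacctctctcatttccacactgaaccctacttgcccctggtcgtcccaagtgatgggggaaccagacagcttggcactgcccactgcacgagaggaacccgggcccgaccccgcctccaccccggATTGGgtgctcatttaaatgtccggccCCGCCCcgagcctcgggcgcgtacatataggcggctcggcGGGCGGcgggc
A GC box occurred 2 times in the Map1b window and 2 times in the Marcksl1 window, and no match to it was found in the Mag window. Among all 32851 windows of this length 35.7% held a GC box, 13.6% a TATA box and 37.4% a CCAAT box. The Mag window held 3 CpG dinucleotides, against 23 in the Map1b window and 22 in the Marcksl1 window, with a median of 7 over all windows. These matches describe the letters only, and the arrays do not bear on which factors bind there.

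Intensities below are the deposited linear values where so named. Otherwise they are values after quantile normalization between arrays, floored at 6.08, and called normalized intensity. Group levels are geometric means. Each array's limit is the size of its lowest deposited value, from 3 to 23, and a spot at or below it has no reading above background there. The share of spots above the limit ran from 37.9% (MLO-Y4 high replicate 1) to 74.8% (2T3 low replicate 1). Both MLO-Y4 arrays numbered 1 had under 40% of spots above it, which touches every member near background in MLO-Y4. By Spearman correlation over all spots, the nearest neighbour of every MLO-Y4 array was its namesake by number in the other MLO-Y4 group (0.791 for number 1, 0.898 for number 2 and 0.863 for number 3). The 2T3 arrays numbered 1 reached at most 0.730 (C0) and 0.740 (low) with any other array, and the other 2T3 arrays 0.877 to 0.881. Quantile normalization was used because the medians of several arrays lie in the background.

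**Figure D1:**
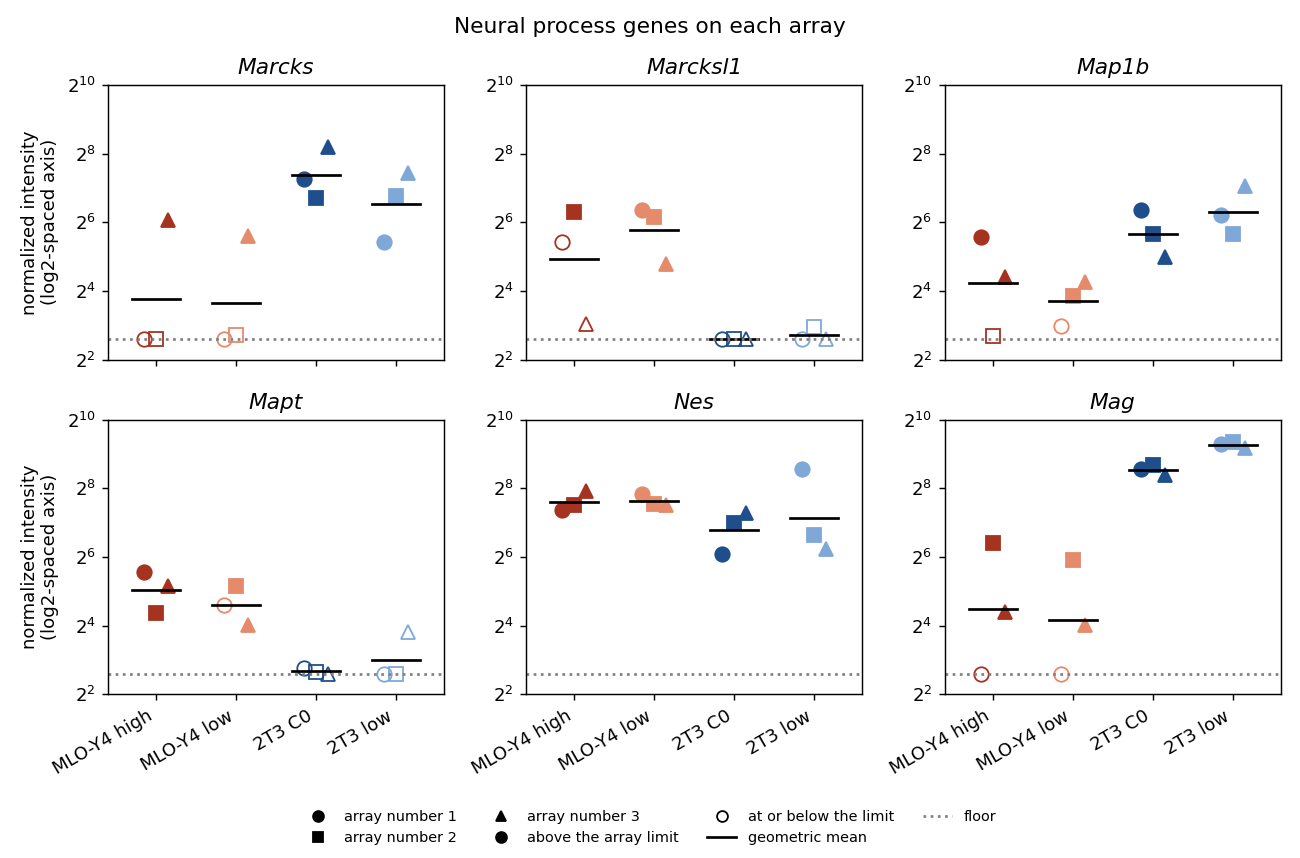
Normalized intensity of the 6 genes on each of the 12 arrays, on a log2-spaced axis, with the group geometric mean as a bar and the floor as a dotted line; open symbols lie at or below the array's limit. Mag separates the lines on every array, Marcksl1 and Mapt are open on all 6 2T3 arrays, and Nes is filled on all 12.

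Mag showed the widest gap. Its deposited intensity was -1, 122 and 10 in MLO-Y4 high and -5, 29 and 9 in MLO-Y4 low, against 357, 669 and 533 in 2T3 C0 and 853, 710 and 108 in 2T3 low. After normalization and the floor it was at 6.08, 84.9 and 21.2 in MLO-Y4 high and 6.08, 60.4 and 16.1 in MLO-Y4 low. The 2T3 values were 377, 413 and 335 in C0 and 625, 652 and 574 in low. Every MLO-Y4 array thus lay below every 2T3 array, and the 3 highest values were those of 2T3 low. It exceeded the limit on 4 MLO-Y4 arrays of 6 and on all 6 2T3 arrays. The geometric mean was 20.0 in MLO-Y4 and 480 in 2T3, a log2 difference of -4.58 (SE 0.67), or 23.9-fold lower in MLO-Y4. Without the 4 arrays numbered 1 it was 13.1-fold lower. With a higher floor, at the 50th percentile of normalized values, it was 13.8-fold lower, and with an offset of 50 in place of a floor 6.98-fold. The order of the groups was 2T3 low, 2T3 C0, MLO-Y4 high and MLO-Y4 low, and only the last pair of neighbours overlapped.

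At matched density the groups did not overlap either, where MLO-Y4 high against 2T3 C0 gave 7.95% of all spots lower and 8.65% higher without overlap, and MLO-Y4 low against 2T3 low gave 8.49% lower and 10.4% higher. Between MLO-Y4 high and 2T3 C0 the log2 difference was -4.07 (SE 0.95), or 16.8-fold lower. It was 8.80-fold without MLO-Y4 high replicate 1 and 32.9-fold without MLO-Y4 high replicate 2. Between MLO-Y4 low and 2T3 low it was -5.09 (SE 0.95), or 34.1-fold lower. There it was 19.8-fold without MLO-Y4 low replicate 1 and 62.3-fold without MLO-Y4 low replicate 2. Arrays numbered 2 were the brightest for Mag in MLO-Y4 at both densities. Arrays numbered 1 had the lowest values, but lay below their normalized limits of 47.8 (high) and 47.2 (low). Those limits exceed the values of the arrays numbered 3, so which array was dimmest is not resolved.

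Within 2T3, Mag was lower in C0 than in low on every array, with no overlap, under each of 6 ways of processing. Of the 6 members this was the only one whose 2T3 groups did not overlap, where 4.17% of all spots were lower in C0 without overlap and 4.87% higher. The deposited values, which carry each array's own brightness, did overlap. The log2 difference was -0.72 (SE 0.95), and the limma adjusted p was 0.995. A fit of the 6 2T3 arrays alone had an SE of 0.15, an unadjusted p of 0.00539 and an adjusted p of 0.613 in limma, so the difference did not pass the test in either fit. In MLO-Y4 the groups overlapped for all 6 members, where 2.41% of all spots were higher and 2.11% lower in high without overlap. For Mag this came with a difference of 0.30 between high and low (SE 0.95, limma adjusted p = 1).

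Of the other genes of myelin and glia, 10 were measured and 1 passed the test between the lines. Cnp, which encodes a myelin phosphodiesterase, was higher in MLO-Y4, with a log2 difference of 1.51 (SE 0.32, limma adjusted p = 0.0146), and was read on 4 MLO-Y4 and 3 2T3 arrays. S100b, a calcium-binding protein of glia and cartilage, was at 2.28 (SE 0.71, limma adjusted p = 0.0816), Slc1a2, a glutamate transporter of astrocytes, at -1.17 (SE 0.46, limma adjusted p = 0.169), and Olig1, a factor of the oligodendrocyte lineage, at -1.45 (SE 0.61, limma adjusted p = 0.206). That call ended with detected-spot scaling, with the higher floor, without the 4 arrays numbered 1 and with same-numbered MLO-Y4 arrays averaged. Mbp, a structural protein of myelin, differed by -0.38 (SE 0.78, limma adjusted p = 0.851). The tight junction gene of myelin, Cldn11, was above the limit on 0 of 6 arrays in either line. The summed normalized intensity of the 10 spots ran from 246 to 1216 in MLO-Y4 and from 210 to 1755 in 2T3, ranges that overlap. Of these 10 spots, 2 were at or below the limit on every MLO-Y4 array and 1 on every 2T3 array. Whether cells of a glial kind take part in the Mag level was not tested. In bulk RNA, fewer cells of a type and less RNA per cell cannot be told apart.

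Genes listed for Mag receptors, for the making of sialylated glycans or as related lectins were measured at 9 spots. Of these 1 passed, where 9.3% of all spots did. St3gal3, a sialyltransferase, had a geometric mean of 219 in MLO-Y4 (147.6 to 435) and 47.5 in 2T3 (32.2 to 66.6). The difference was 2.21 (SE 0.28, limma adjusted p = 9.14e-04), with all arrays above the limit and no overlap. It passed under all 21 alternatives run for it. The related St3gal1 differed by 1.44 (SE 0.56, limma adjusted p = 0.163). The sialic acid lectin genes Siglec1 and Cd22 were above the limit on 0 MLO-Y4 arrays and on 2 2T3 arrays each.

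Marcks was read in both 2T3 groups and on few MLO-Y4 arrays. Its deposited intensity was -1, 3 and 38 in MLO-Y4 high and -5, 3 and 31 in MLO-Y4 low, against 155, 171 and 469 in 2T3 C0 and 100, 111 and 34 in 2T3 low. Only the 2 MLO-Y4 arrays numbered 3 were above the limit. In normalized intensity these 2 lay at 67.6 (high) and 48.6 (low), and the lowest 2T3 array, low replicate 1, lay at 42.7. The lines therefore overlapped through these 3 arrays. The geometric mean was 13.0 in MLO-Y4 and 124 in 2T3, a log2 difference of -3.26 (SE 0.77), or 9.55-fold lower in MLO-Y4. At the denser state the MLO-Y4 high arrays all lay below the 2T3 C0 arrays, 12.3-fold on average, with 1 of 3 MLO-Y4 high arrays read. Without that array, replicate 3 and the brightest of its group, only a bound remains, at least 7.17-fold lower for the 2 arrays left. At low density the groups overlapped and the mean was 7.42-fold lower, again with 1 of 3 MLO-Y4 arrays read. Without that array, MLO-Y4 low replicate 3 and again the brightest, the 2 arrays left were at least 3.54-fold lower. Both bounds drop the highest reading of the group, so neither is a minimum for all 3 arrays. With the higher floor the difference of the lines was 3.85-fold, and with the offset 2.66-fold. In the order 2T3 C0, 2T3 low, MLO-Y4 high and MLO-Y4 low, every pair of neighbours overlapped.

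Marcksl1 ran the other way. Its deposited intensity was 16, 114 and 4 in MLO-Y4 high and 62, 40 and 17 in MLO-Y4 low, against 5, 6 and 12 in 2T3 C0 and -2, 5 and -1 in 2T3 low. No 2T3 array was above its limit, and 4 of 6 MLO-Y4 arrays were. Normalized values were 42.6, 79.1 and 8.25 in MLO-Y4 high and 81.3, 71.4 and 27.5 in MLO-Y4 low, while 5 of 6 2T3 arrays lay at the floor. The level in 2T3 is only a bound. At low density, where 3 of 3 MLO-Y4 arrays were read, the Marcksl1 level of MLO-Y4 stood at least 4.55-fold higher, taken against the limits of the 2T3 arrays. At the denser state only MLO-Y4 high replicate 2 was read, and no fold is given. Over both densities the MLO-Y4 mean of 40.5 was 3.84 times the mean limit of the 2T3 arrays, which is no bound, since MLO-Y4 high replicates 1 and 3 entered it at readings below their own limits. With the higher floor the measured means of the lines differed 2.00-fold, and with the offset 1.86-fold. With detected-spot scaling, with cyclic loess and with the higher floor the lines overlapped. As reported, the closest arrays of the lines were MLO-Y4 high replicate 3 at 8.25 and 2T3 low replicate 2 at 7.75. Both lay below their limits, so their order is not resolved.

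The pair of MARCKS genes differed by array number within MLO-Y4. In both MLO-Y4 groups array number 3 had the highest Marcks value and the lowest Marcksl1 value. The normalized Marcks values on these arrays were 67.6 in high and 48.6 in low, with the other 4 MLO-Y4 arrays at or near the floor. Marcksl1 was at 8.25 and 27.5 there, against 42.6 to 81.3 on the other MLO-Y4 arrays. Same-numbered MLO-Y4 arrays also deviated together over all spots, with correlations of 0.625, 0.475 and 0.505 across spots for numbers 1, 2 and 3. What the number marks is not given in the labels, and its part in these levels was not tested.

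**Figure D2:**
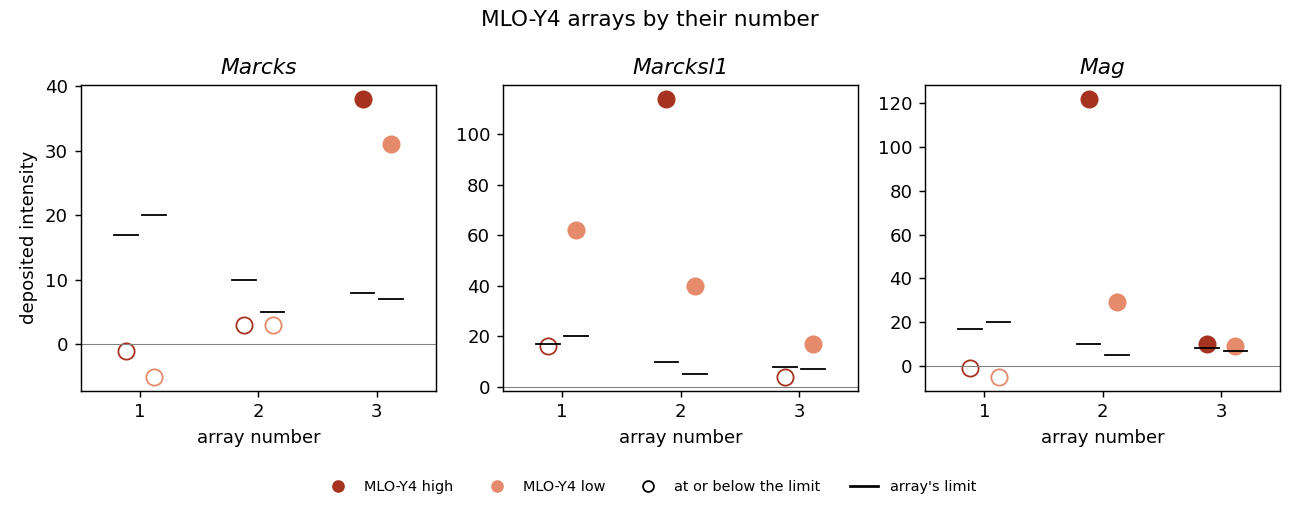
Deposited intensity of Marcks, Marcksl1 and Mag on the 6 MLO-Y4 arrays, set out by array number; short bars show each array's limit and open symbols readings at or below it. Marcks was read only on arrays numbered 3 and Mag was brightest on arrays numbered 2, at both densities.

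Partners of MARCKS at the membrane did not pass the test between the lines. Over all spots 21.1% had an unadjusted p under 0.05 in this comparison. Of 10 other measured genes of that list, 0 were higher and 0 lower by limma at adjusted p 0.05, with 2 of 12 spots under an unadjusted p of 0.05. These were Pip5k1a, which makes the phosphoinositide that MARCKS binds, at 1.51 (SE 0.49, limma adjusted p = 0.0926), and its relative Pip5k1c at -1.38 (SE 0.47, limma adjusted p = 0.109). Gap43, a growth cone protein held at the membrane like MARCKS, was read on 0 MLO-Y4 and 3 2T3 arrays. Kinases, phosphatases and other genes listed for MARCKS or tau also passed in 0 of 19 cases, with 6 of 20 spots under an unadjusted p of 0.05. All 6 were lower in MLO-Y4, and the median difference of the list was -0.58 against -0.03 over all spots. The phosphatase subunit gene Ppp2cb had the smallest p, at -1.59 (SE 0.51, limma adjusted p = 0.0886). The protein kinase C gene Prkcd was at -0.68 (SE 0.27, limma adjusted p = 0.180).

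Map1b was read on all 6 2T3 arrays and on 4 of 6 MLO-Y4 arrays. Its deposited intensity was 18, 6 and 10 in MLO-Y4 high and 1, 6 and 10 in MLO-Y4 low, against 79, 88 and 67 in 2T3 C0 and 142, 56 and 25 in 2T3 low. Normalized, it lay at 47.8, 6.50 and 21.2 in MLO-Y4 high and at 7.92, 14.5 and 19.0 in MLO-Y4 low. The 2T3 arrays lay at 82.1, 50.2 and 32.1 in C0 and at 74.0, 50.3 and 132 in low. The only overlap between the lines came from MLO-Y4 high replicate 1, read 1 unit above its limit of 17, and 2T3 C0 replicate 3. The geometric mean was 15.6 in MLO-Y4 and 63.4 in 2T3, a log2 difference of -2.02 (SE 0.51), or 4.07-fold lower in MLO-Y4. With the higher floor it was 2.34-fold lower, with the offset 1.70-fold and with detected-spot scaling 6.84-fold. At low density the groups did not overlap under any of the 6 ways of processing, and MLO-Y4 was 6.09-fold lower. There MLO-Y4 low replicate 1 entered at 7.92, below its normalized limit of 47.2. Replicate 2 was read at 6 against a limit of 5, so the size leans on readings at or below the edge of background. Without MLO-Y4 low replicate 1 the difference was 4.76-fold. At the denser state MLO-Y4 was 2.72-fold lower with overlap, 4.34-fold without MLO-Y4 high replicate 1 and 1.60-fold without MLO-Y4 high replicate 2. The order was 2T3 low, 2T3 C0, MLO-Y4 high and MLO-Y4 low, and all neighbours overlapped.

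Mapt stood just above background in MLO-Y4. Its deposited intensity was 18, 22 and 20 in MLO-Y4 high and 10, 16 and 9 in MLO-Y4 low, against 8, 8 and -2 in 2T3 C0 and 3, 1 and 2 in 2T3 low. It exceeded the limit on 5 MLO-Y4 arrays and on 0 2T3 arrays. Normalized values ran from 20.5 to 47.8 in MLO-Y4 high and from 16.1 to 35.9 in MLO-Y4 low, and the highest 2T3 value was 14.1, on low replicate 3. The normalized limit of that 2T3 array was 25.1, above the lowest MLO-Y4 value, so the gap between the lines is not resolved. For Mapt the MLO-Y4 high level stood at least 3.50-fold higher against the limits of the 2T3 C0 arrays, with 3 of 3 MLO-Y4 arrays read. The highest of these, replicate 1, was read at 18 against its limit of 17, so the size leans on a reading at the edge of background. At this density the measured difference was 1.42-fold with the higher floor and 1.58-fold with the offset. In MLO-Y4 low, where 2 of 3 were read, the mean of 24.2 was 2.03 times the mean limit of 2T3 low, which is no bound. The lines overlapped with detected-spot scaling and with the higher floor. With that floor the measured difference of the lines was 1.28-fold, and with the offset 1.47-fold. In the order MLO-Y4 high, MLO-Y4 low, 2T3 low and 2T3 C0, the groups overlapped within each line and not between the lines.

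Other microtubule-associated genes did not share 1 direction. Of 20 measured, 1 was higher and 2 were lower in MLO-Y4, where 5.83% and 3.48% of all spots were higher and lower, and the median difference was -0.20 against -0.03 over all spots. Gas2, whose product links actin and microtubules, had a geometric mean of 149 in MLO-Y4 (91.7 to 295) and 7.36 in 2T3 (6.08 to 13.8), a difference of 4.34 (SE 0.37, limma adjusted p = 5.52e-05). It was above the limit on 2 of 6 2T3 arrays, so the size rests on the floor. Dpysl3, a collapsin response mediator of growth cones, was lower in MLO-Y4 by -1.44 (SE 0.31, limma adjusted p = 0.0154). Mid1, a microtubule-bound ubiquitin ligase, was lower by -1.40 (SE 0.33, limma adjusted p = 0.0233). Both calls ended with equal medians and without the 4 arrays numbered 1, and that of Dpysl3 also with same-numbered MLO-Y4 arrays averaged. Mid1 was also lost without 2T3 low replicate 3 (and without MLO-Y4 low replicate 2). Mid2 was at -2.95 (SE 0.96, limma adjusted p = 0.0953).

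Of 8 measured tubulin genes 1 was lower in MLO-Y4 and 0 were higher. Tubb5, a beta tubulin of dividing cells, had a geometric mean of 153 in MLO-Y4 (71.3 to 306) and 868 in 2T3 (453 to 1833). The difference was -2.50 (SE 0.42, limma adjusted p = 0.00427), the lines did not overlap, and the call ended without the 4 arrays numbered 1 (0.0513). Tubulin genes share stretches of sequence, and which of them a spot reads cannot be told from the files. Of 16 measured motor genes 0 passed, with 1 spot under an unadjusted p of 0.05, the kinesin heavy chain gene Kif5b at -1.49 (SE 0.59, limma adjusted p = 0.176).

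Nes was the member read everywhere. Its deposited intensity was 124, 263 and 152 in MLO-Y4 high and 197, 111 and 114 in MLO-Y4 low, against 66, 206 and 264 in 2T3 C0 and 575, 103 and 13 in 2T3 low. Normalized, it spanned 166 to 244 over the 6 MLO-Y4 arrays and 67.5 to 379 over the 6 2T3 arrays. The highest and the lowest array of all 12 were therefore both 2T3 arrays. The overlap came from 2T3 low replicate 1 at 379 alone, as the next highest 2T3 array lay at 156. Without that array every MLO-Y4 array lay above every 2T3 array, 2.02-fold on average, where 237 of all spots did so. The geometric mean was 196 in MLO-Y4 and 125 in 2T3, a log2 difference of 0.66 (SE 0.41), or 1.58-fold. With equal medians it was 2.76-fold. At the denser state the MLO-Y4 high arrays all lay above the 2T3 C0 arrays, 1.77-fold on average, although they overlapped under 2 of 6 ways of processing. At low density the groups overlapped and the difference was 1.40-fold, with 2.29-fold without 2T3 low replicate 1 and 1.02-fold without 2T3 low replicate 3. All neighbours in the order MLO-Y4 low, MLO-Y4 high, 2T3 low and 2T3 C0 overlapped.

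Of 9 other measured intermediate filament genes 1 was lower in MLO-Y4 and 0 were higher, with a median difference of -1.17 against -0.03 over all spots. Lmnb1, a lamin of the nuclear envelope, was lower by -1.73 (SE 0.46, limma adjusted p = 0.0447), a call that was kept under 6 of 21 alternatives. Vim, the vimentin gene whose product assembles with nestin, was at -1.24 (SE 0.49, limma adjusted p = 0.171). Of 13 other measured genes of neural progenitors 1 was lower and 0 were higher. Cdh2, which encodes N-cadherin, was lower by -2.42 (SE 0.49, limma adjusted p = 0.0109) and was read on 1 MLO-Y4 array and all 6 2T3 arrays. The summed intensity of these 13 spots ran from 2861 to 10827 in MLO-Y4 and from 4430 to 12943 in 2T3. Vim is 1 of the 13 and makes up much of that sum. It alone ran from 1491 to 9683 in MLO-Y4 and from 4043 to 11905 in 2T3. Of 7 endothelial markers 0 passed, with 0 under an unadjusted p of 0.05, and their sum ran from 60.4 to 245 in MLO-Y4 and from 113 to 257 in 2T3. The part of either cell type in the Nes level was not tested.

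**Figure D3:**
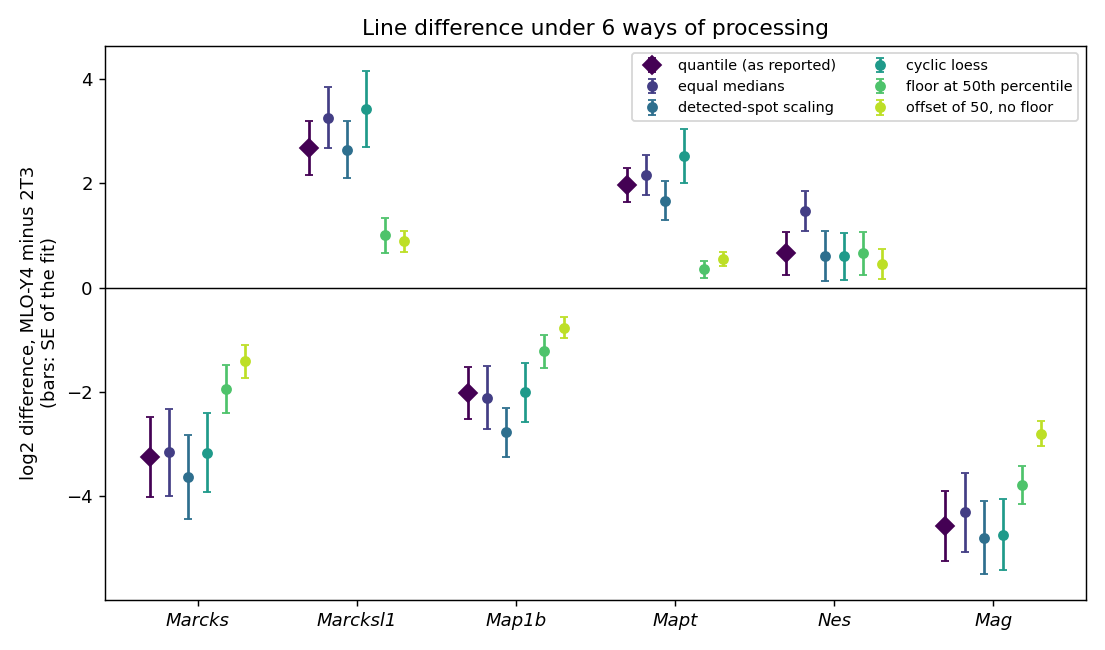
Log2 difference between MLO-Y4 and 2T3 (12 arrays) for each gene under 6 ways of processing, with the SE of the fit as bars. Each gene keeps its side of 0, while the higher floor draws all genes but Nes towards it and the offset all 6.

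The density comparisons asked whether contact between cells goes with these genes within a line. None of the 6 members passed the limma test between MLO-Y4 high and MLO-Y4 low, and none between 2T3 C0 and 2T3 low. Over all 5030 spots 0% passed in either comparison, while 116 spots (2.31%) in MLO-Y4 and 266 (5.29%) in 2T3 had an unadjusted p under 0.05. In MLO-Y4 the largest difference was that of Marcksl1, at -0.84 (SE 0.73, limma adjusted p = 1), followed by Map1b at 0.53 (SE 0.72) and Mapt at 0.43 (SE 0.46). Marcks was at 0.12 (SE 1.09) and Nes at -0.02 (SE 0.57). In 2T3, Marcks was at 0.85 (SE 1.09, limma adjusted p = 0.995), Map1b at -0.63 (SE 0.72) and Nes at -0.36 (SE 0.57). Mapt was at -0.33 (SE 0.46) and Marcksl1 at -0.12 (SE 0.73), both below the limit on every 2T3 array. These SEs are pooled over both lines, and they are widest for Marcks (1.09) and Mag (0.95). The difference between the density effects of the lines was tested too, and 0 members and 0 spots passed by limma, with 145 spots (2.88%) under an unadjusted p of 0.05. It was 1.16 for Map1b (SE 1.01), 1.02 for Mag (SE 1.35) and from -0.73 to 0.76 for the other members. With the block within each line the SE for Mag was 0.39, with a limma p of 0.0384 unadjusted and 0.887 adjusted.

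**Figure D4:**
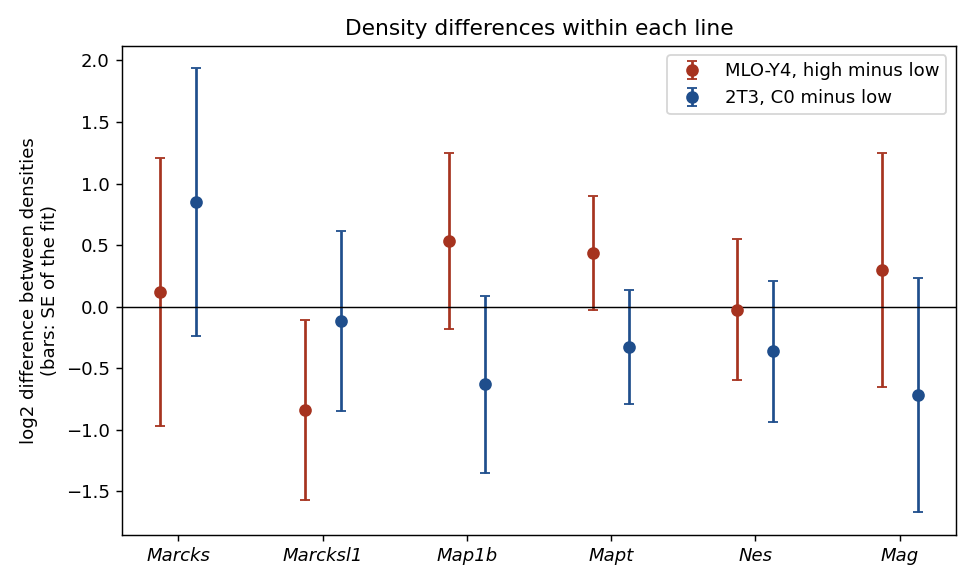
Log2 difference between the denser and the low group within MLO-Y4 and within 2T3 for each gene, with the SE of the fit as bars (3 arrays a group). All bars but 1 (Marcksl1 in MLO-Y4) cross 0, and the widest are those of Marcks and Mag.

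Over the 14 lists of other neural, cytoskeletal and cell type genes, 16 of 162 spots passed between the lines, 9 higher and 7 lower in MLO-Y4. That is 9.88% of these spots, against 9.3% of all spots, so the lists together were called about as often as any spot. This fit counts all 6 MLO-Y4 arrays as independent, although those of the same number deviate together. With the same-numbered MLO-Y4 arrays averaged, 9 of the 16 calls were kept and none was added, 4 higher and 5 lower, where 5.13% of all spots passed. The calls lost were those of Cnp, Dpysl3, Lmnb1, Pdpn, Capg, Cd44 and Csf1r. The split was 12 higher and 5 lower with equal medians, and 7 and 11 with detected-spot scaling. None of the 20 measured neuronal markers passed, with 4 under an unadjusted p of 0.05. These 4, Gad2, Th, Cplx2 and Chat, were all lower in MLO-Y4. The median difference of the neuronal list was -0.26, against -0.03 over all spots. The summed intensity of the 20 neuronal markers ran from 1093 to 6674 in MLO-Y4 and from 1194 to 6024 in 2T3. Uchl1 makes up much of that sum, at 752 to 5066 in MLO-Y4 and 540 to 4158 in 2T3. The 14 lists were chosen with earlier results of these data known, so their calls between the lines are a description and no independent support. Osteocyte markers passed in 5 of 6 cases, all higher in MLO-Y4, and in 2 of 6 with the arrays averaged. Those 2 were Ackr3, a chemokine receptor, at 4.40 (SE 0.25, limma adjusted p = 5.16e-06), and Dstn, an actin-severing protein, at 2.49 (SE 0.25, limma adjusted p = 1.87e-04), both kept under 21 of 21 alternatives. Pdpn, an early marker of osteocyte processes, was at 2.55 (SE 0.56, limma adjusted p = 0.0174), and its call also ended without the 4 arrays numbered 1. The calls of Cd44 and Capg held under 9 and 11 of 21 alternatives. The osteocyte gene Phex was above the limit on 0 of 12 arrays. Of 10 osteoblast markers 1 passed, Msx2, a homeobox gene of osteoblasts, lower at -3.46 (SE 0.68, limma adjusted p = 0.00998). The osteoblast genes Dlx3 at 2.52 (SE 0.81), Omd at -1.13 (SE 0.37), Alpl at 2.08 (SE 0.71) and Bglap at -2.02 (SE 0.99) did not pass. Of 8 macrophage markers 1 was higher and 1 lower, Csf1r at 0.99 (SE 0.24), kept under 9 of 21 alternatives, and Tyrobp at -3.25 (SE 0.59), a call that ended without the 4 arrays numbered 1.

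**Figure D5:**
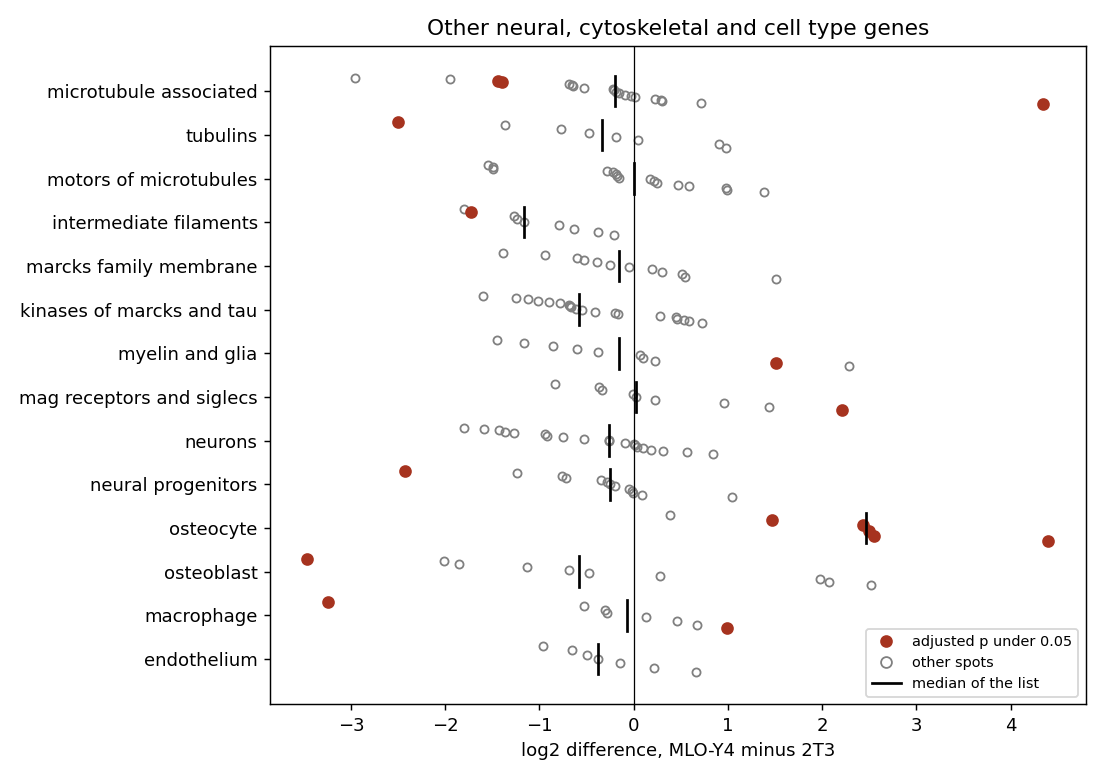
Log2 difference between MLO-Y4 and 2T3 for each measured spot of 14 gene lists without the 6 members; filled points passed limma at adjusted p 0.05 and bars mark the list median. The osteocyte list lies to the right with 5 of 6 filled (2 of 6 pass with same-numbered MLO-Y4 arrays averaged), and the neural and cytoskeletal lists hold 0 to 3 filled points each.

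The genes whose levels ran most like those of a member were named by Pearson correlation over the 12 arrays, among 2903 spots with 1 gene symbol above the limit on at least 6 arrays. These points share arrays and the gap between the lines, so the values are a description. For Mag they were Dkk2 (0.95), Nasp (0.94) and Msx2 (0.94), and for Marcks Crabp1 (0.95), Hmgb2 (0.94) and Kif20a (0.93). For Map1b they were Zfp57 (0.89), Hells (0.88) and Syk (0.87). Nes ran most like Saa2 (0.95), Cdh13 (0.92) and Mxd1 (0.87). Marcksl1 and Mapt were above the limit on 4 and 5 arrays and were left out of this search.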

How the data were processed

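The deposited values are linear spot intensities of 12 one-colour arrays, whole numbers with some below 0. The scanner software, the background method and any scaling by the authors: not given in the sources used here. Median intensity per array ran from 4 to 55. Spots were named through a platform annotation, with symbols updated by Entrez identifier in RefSeq: 4633 of 5030 had 1 symbol, 5 had several and 392 were unnamed here.

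Intensities were quantile-normalized between arrays, floored at their 25th percentile (6.08) and put on the log2 scale. Group means were fitted over all 12 arrays with limma 3.58.1 in R 4.3.3 (8 residual degrees of freedom), tested on simulated data first, and p-values were adjusted over all spots by Benjamini-Hochberg, with a threshold of 0.05. Members and gene lists were chosen with earlier results of these data known. From each list but the endothelial one, genes with the smallest p between the lines were named, up to 4 and for several lists fewer. Mbp, Cldn11, Siglec1, Cd22, Uchl1, Phex, Bglap and Cd44 fall outside that rule and were chosen after their values were seen. A gene that the rule would name is not reported here. Likeness was ranked by Pearson correlation.

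Whether array numbers pair samples was checked from the correlation over spots of deviations from group means. It was above 0.1 for every number in MLO-Y4 (0.625, 0.475 and 0.505), so these arrays were taken as paired, and 0.039, 0.064 and 0.152 in 2T3, which were not. The main fit carries no pairing. Alternatives were other scalings, floors and filters, the replicate block, same-numbered MLO-Y4 arrays averaged, and arrays left out. Precision is limited by 3 arrays a group.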

Additional observations from a re-analysis of the deposited data

How the results depend on the processing

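The direction of each member's difference between the lines held under all 21 alternatives run (20 at matched density), while sizes moved. Not all of these could move the estimate. The replicate block, the spot filter and the averaging of same-numbered arrays return the same difference by construction. At matched density, so does leaving out an array of a group that is not compared. The count of members lower in MLO-Y4 without overlap was 1 as reported (Mag). It was 3 with detected-spot scaling and 3 without the 4 arrays numbered 1 (Marcks, Map1b and Mag in both). Over all spots, 88 were lower without overlap as reported, 165 with detected-spot scaling and 392 without the 4 arrays numbered 1. Leaving out 1 array gave 1 to 2 members, where 95 to 150 of all spots were lower without overlap. The count of members higher without overlap was 2 as reported (Marcksl1 and Mapt). It was 0 with detected-spot scaling, 1 with cyclic loess (Mapt) and 0 with the floor at the 50th percentile. For the floor this follows from its construction, since dim readings then share 1 value, and for the scalings the cause was not tested. Without the 4 arrays numbered 1 the count was 3 (Marcksl1, Mapt and Nes), and leaving out 1 array gave 2 to 3. Over all spots, 206 were higher without overlap as reported, 184 with detected-spot scaling, 185 with cyclic loess and 183 with that floor. Without the 4 arrays numbered 1 there were 412, and with 1 array left out 214 to 248. Calls among the 14 lists between the lines ran from 12 to 19 over 20 alternatives, against 16, and came to 9 with same-numbered MLO-Y4 arrays averaged, an alternative chosen after seeing the data that leaves 3 MLO-Y4 values. The 1253 spots read on every array had a median log2 difference between the lines of 0.04 as reported, 0.79 with equal medians and -0.07 with detected-spot scaling, so differences with equal medians are to be read against that shift. With the replicate block 0 members were called in either density comparison, as was the case with a replicate block within each line, an alternative chosen after seeing the data, and with the 6 arrays of a line fitted alone. In MLO-Y4, where the numbers pair the arrays, that block gave -0.84 for Marcksl1 with an SE of 0.41 (limma adjusted p = 1). The block changed no call of a member. Readings near background limit Marcksl1, Mapt, and the MLO-Y4 levels of Marcks, Map1b and Mag.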
